A study of Homo sapiens with 4 samples.

Results

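The cytosolic ribosomal protein genes were followed probe by probe through a TET1 knockdown in A549 and H1299 cells. Members were all probes whose symbol in the deposited table was RPL or RPS with a number, with or without one of the suffixes A, L, X, AL and L1, together with RPLP0, RPLP1, RPLP2 and RPSA. This rule found 148 probes of 88 symbols among 47321 probes of 31397 symbols, and every probe was kept apart. Of these probes, 92 belong to the large 60S subunit and 56 to the small 40S subunit. A single probe stands for 42 of the symbols, and the other 46 have between 2 and 4 probes. RefSeq now names 3 of the symbols as pseudogenes, RPL13L, RPL14L and RPS26L, with 7 probes, and these were kept because the rule takes the symbols of the table.

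Cytosolic ribosomal proteins form the protein part of the ribosome, in which the small subunit reads the mRNA and the large subunit joins amino acids. Their mRNAs are among the most abundant of a growing cell and share a terminal oligopyrimidine start, a run of C and T bases beginning at the first transcribed base, through which mTOR and LARP1 control their translation. Copies that escaped from these mRNAs are spread over the genome as processed pseudogenes, so that a probe or read of a ribosomal protein gene can have near-identical sequence elsewhere.

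The 4 samples, with 1 array each, were A549 cells with the siRNA label vehicle, A549 cells with siRNA knockdown of TET1, H1299 cells with vehicle and H1299 cells with siRNA knockdown of TET1. TET1 is an enzyme that converts methylated cytosine of DNA to its hydroxymethylated form, and both lines are established non-small-cell lung cancer lines. The labels give the source as lung bronchial epithelium, name no dose, time or non-targeting siRNA, and carry the same chip number for all 4 arrays. The comparison that the labels imply is knockdown against vehicle in each line, and with 1 array a group it has no replicate within a line.

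Of the 47321 probes, 13980 were detected on A549 vehicle, 17107 on A549 knockdown, 16883 on H1299 vehicle and 14417 on H1299 knockdown. Detected here means a detection p-value under 0.01. The single TET1 probe had raw signals of 222.1 and 164.5 on the A549 vehicle and knockdown arrays and of 255.9 and 186.8 on those of H1299, and it was detected on the vehicle arrays only. Of 6 epithelial markers, 5 were detected on each A549 array and 1 on each H1299 array. None of 5 alveolar and airway markers was detected on any array. Of the markers of other cells, 1 of 4 for blood cells (CD14) was detected on every array, 0 of 3 for endothelium on any, and 1 of 4 for fibroblasts (COL1A1) on the A549 arrays. Over all probes the A549 vehicle array and the H1299 knockdown array resembled each other more than vehicle arrays resembled each other, as set out below for the ribosomal protein probes. Whether the arrays carry the RNA their labels name cannot be told from the ribosomal protein probes, and the labels were used as given.

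Because the terminal oligopyrimidine start is what these mRNAs share, the sequence around the annotated start was read from RefSeq promoters of GRCh38.p14. Of the 88 symbols, 68 matched, with 84 promoters. The windows shown run from 15 bases before the start to 15 bases from it on, 5′ to 3′ on the strand of the gene, with the start at base 16. Capitals mark the unbroken run of C and T that holds the start base. The first 6 belong to genes with a probe that moved in opposite directions in the lines, and the rest are paralogue pairs and RPL7L1.
RPLP0, chr12:120201097-120201126, minus strand: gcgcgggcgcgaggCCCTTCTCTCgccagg
RPS9, chr19:54200843-54200872, plus strand: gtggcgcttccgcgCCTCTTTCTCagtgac
RPSA, chr3:39406705-39406734, plus strand: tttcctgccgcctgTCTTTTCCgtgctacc
RPS3, chr11:75399503-75399532, plus strand: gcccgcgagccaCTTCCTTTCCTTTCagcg
RPS14, chr5:150449725-150449754, minus strand: ccgccccctcccaCTCTCTCTTTCCggtgt
RPL12, chr9:127451392-127451421, minus strand: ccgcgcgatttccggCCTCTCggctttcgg
RPL22, chr1:6199581-6199610, minus strand: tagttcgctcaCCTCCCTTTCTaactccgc
RPL22L1, chr3:170870181-170870210, minus strand: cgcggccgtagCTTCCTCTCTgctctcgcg
RPL36A, chrX:101390996-101391025, plus strand: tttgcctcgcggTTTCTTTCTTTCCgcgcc
RPL36AL, chr14:49620612-49620641, minus strand: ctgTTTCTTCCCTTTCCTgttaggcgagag
RPS27, chr1:153990747-153990776, plus strand: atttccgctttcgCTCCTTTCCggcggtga
RPS27L, chr15:63157463-63157492, minus strand: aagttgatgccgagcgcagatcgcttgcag
RPL7L1, chr6:42879601-42879630, plus strand: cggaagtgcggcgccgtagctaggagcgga

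A pyrimidine run of at least 5 bases held the start in 52 of the 84 promoters (61.9%), against 9.60% of all 35116 promoters of the table. The run was counted on both sides of the annotated start, so it need not begin at the first transcribed base. The motif CTTTC or CTTTT lay in the window of 49 promoters (58.3%) and of 7.88% of all. On the other strand, where it reads GAAAG or AAAAG, it was found in 3 promoters (3.57%) and in 5.49% of all. In the windows shown, the paralogues RPS27L and RPL7L1 have no pyrimidine at the annotated start. RPL22L1 and RPL36AL have runs of 10 and 15 bases, and most of the RPL36AL run lies before that start. Runs were also read for genes not shown that had a probe at least 2-fold higher in A549 and lower in H1299. RPL6 and RPS15 have runs of 1 and 2 bases at most, and RPL9, RPL17, RPS4X and RPS26 of 0. RPL3, RPL36, RPS7, RPL28 and RPL24 have 5, 7, 11, 13 and 16 at most. These matches describe the sequence only.

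Most ribosomal protein probes were bright. Of the 148, 122 were detected on all 4 arrays, 15 on some of them and 11 on none. At least 1 probe was detected on all arrays for 81 of the 88 symbols. RPL10, and the paralogues RPL10L and RPL3L, known from testis and from muscle, had no probe detected anywhere. Together the 148 probes took between 5.02% and 5.44% of the summed raw signal of an array.

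In A549, 25 of the 132 members detected on at least 1 of the line's arrays were at least 2-fold higher after knockdown (18.9%, against 13.6% of all 17579 probes), and 3 were at least 2-fold lower (2.27%, against 8.34%). In H1299 the counts lay the other way, with 6 of 136 at least 2-fold higher (4.41%, against 16.7% of 17747) and 36 lower (26.5%, against 19.3%). The small subunit held 13 of the probes that were higher in A549 and 15 of those lower in H1299, and the large subunit held 12 and 21. These are normalised signals on the log2 scale, and changes are given as knockdown minus vehicle.

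The A549 split depended on the scaling. Of 132 members, 25 were at least 2-fold higher and 3 lower after quantile normalisation. With median centring over probes detected on all 4 arrays, 18 were higher and 11 lower. With median centring over all probes, a setting chosen after the data were seen, 36 were higher and 3 lower. The share of all probes that were at least 2-fold higher was 13.6%, 12.4% and 25.1% in these settings. The count of higher members thus rose and fell with the share over all probes. The median change of the members was 0.06 in A549 and -0.16 in H1299, against -0.07 and 0.18 over all probes. With median centring over detected probes it was -0.32 and -0.02, against -0.15 and 0.05, so the sign of the family's median in A549 turned. With centring over all probes it was 0.25 and 0.17, against 0.42 and 0.24. In bulk RNA, fewer cells of a kind and less RNA per cell cannot be told apart.

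No ribosomal protein probe passed the test for the knockdown across the lines. In limma, fitted with line and knockdown to 17002 probes detected on at least 2 arrays, 0 of 134 members passed an adjusted p of 0.05 in either direction, and 0 had an unadjusted p under 0.05. Over all probes, 1 passed as higher (0.00588%) and 0 as lower (0%). This test has 1 residual degree of freedom, and its error is the usual disagreement of the lines at a probe's signal, taken from the trend over all probes, rather than the disagreement of the probe itself.

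The lines disagreed in many members. Of the 134, 24 were 2-fold or more higher in A549 while being at least 2-fold lower in H1299 (17.9%, against 10.1% of 17002 probes), called the opposing class here. The reverse held for 3 (2.24%, against 3.68%). With undetected values held at the lowest detected value of their array, the counts were 22 and 3, and the probes that left the class were RPL36 (ILMN_1771462) and RPS15 (ILMN_2219131). None was at least 2-fold higher in both lines (0.106% of all probes) and none lower in both (0.0647%). By sign alone, 66 members were higher in A549 and lower in H1299 (31.5% of all probes were), 49 were lower and then higher (46.2%), and 19 had the same sign in both. After median centring over detected probes these sign counts were 45, 66 and 23. The changes of a probe in the lines come from 4 different arrays and share none.

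**Figure D1:**
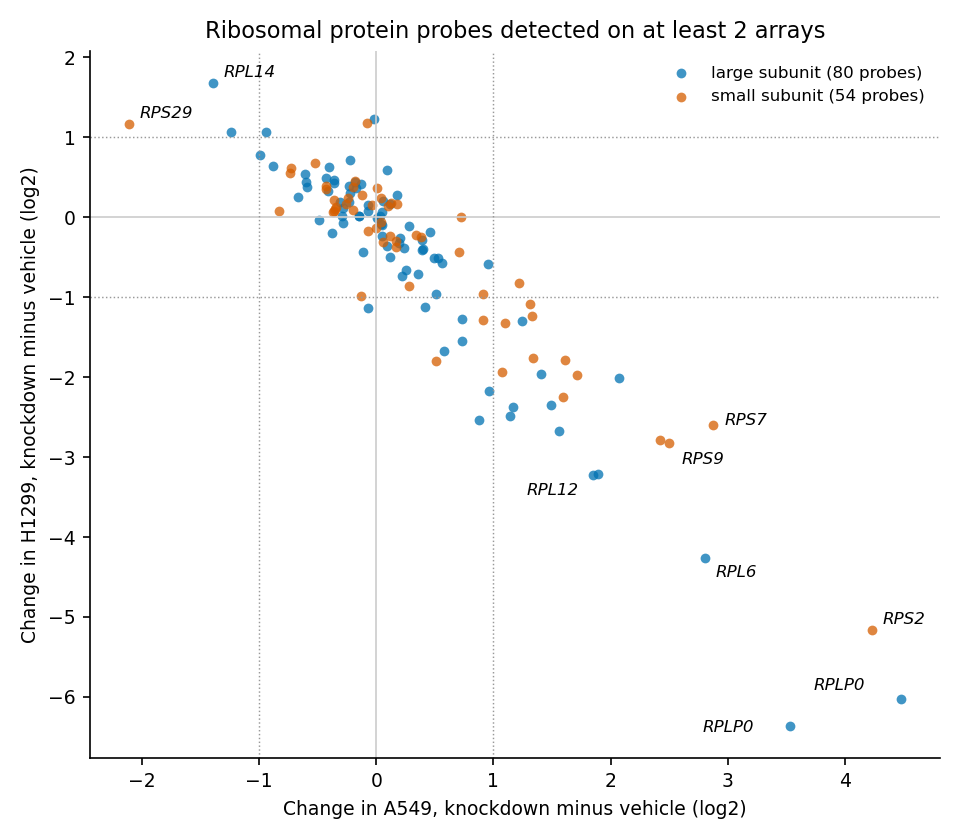
Change of each of the 134 ribosomal protein probes detected on at least 2 arrays, knockdown minus vehicle on the log2 scale, in A549 on the horizontal axis and in H1299 on the vertical axis; 1 point is 1 probe, coloured by subunit, and dotted lines mark a 2-fold change. The points run from upper left to lower right, and the 24 probes in the lower right corner include both RPLP0 probes detected on any array, RPS2, RPL6, RPS7 and both RPS9 probes.

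The stalk of the large subunit, which recruits elongation factors to the ribosome, consists of RPLP0 at its base with RPLP1 and RPLP2. The RPLP0 probe ILMN_1709880 had raw signals of 138.5 on A549 vehicle, 901.8 on A549 knockdown, 2391.3 on H1299 vehicle and 163.0 on H1299 knockdown. Its probe ILMN_1745075 had 125.4, 495.1, 2030.4 and 128.5 on the same arrays. Both were below detection on A549 vehicle and on H1299 knockdown and well above it on the other arrays. Against the lowest detected normalised value of the dim array, the first probe was at least 9.24-fold higher with knockdown in A549 and, in H1299, at least 36.4-fold lower. For the second probe the bounds were at least 4.11-fold higher and at least 30.4-fold lower. These bounds hold for the background-corrected, normalised values only. On the deposited values the changes were smaller, 1.42 and -2.93 log2 for the first probe and 0.76 and -2.81 for the second. The remaining RPLP0 probe, ILMN_2402090, lay between 128.8 and 141.2 and was detected nowhere.

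The other stalk genes did not share this course. The RPLP2 probe was at 33905.4, 40101.8, 42173.9 and 37002.6, with changes of 0.19 in A549 and -0.32 in H1299. For RPLP1, the probes ILMN_2247594 and ILMN_2386530 had changes of 0.39 and 0.49 in A549 and of -0.41 and -0.51 in H1299. The remaining RPLP1 probe, ILMN_1689725, was at 9246.3, 10775.2, 5436.8 and 14479.6, with -0.02 in A549 and 1.23 in H1299, the opposite sign in H1299 to the other RPLP1 probes. Its knockdown effect over the lines was 0.60 ± 0.49 (SE; limma adjusted p = 1).

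In the small subunit, RPS2, which lies near the entry of the mRNA channel, had its only probe at 397.0, 7922.0, 9727.6 and 398.3. A549 vehicle and H1299 knockdown had nearly equal values, far below those of the other arrays. The changes were 4.23 in A549 and -5.16 in H1299, and the knockdown effect over the lines was -0.46 ± 0.71 (SE; limma adjusted p = 1). RPS3, another protein of the entry channel, had 4204.3, 16665.9, 15364.1 and 4693.2 on its only probe, with changes of 1.71 and -1.97. RPS9, which also lines that channel, was measured by a pair of probes that moved together, with 1048.2, 7221.7, 6007.3 and 1053.8 on ILMN_1749447 and 824.5, 5338.6, 4438.8 and 807.2 on ILMN_2038772. Their changes were 2.50 and 2.42 in A549 and -2.82 and -2.79 in H1299.

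Other small-subunit probes were also lower on A549 vehicle and H1299 knockdown than on the other arrays. RPS14, a protein of the platform, had 2971.5, 10994.5, 13828.1 and 3549.8 on ILMN_1666635. RPSA, the laminin receptor precursor of the mature small subunit, had 7346.2, 22141.3, 20411.0 and 7338.7 on ILMN_2411723. RPS7, which is known to bind MDM2, had 141.0, 408.2, 349.6 and 155.8 on ILMN_2070072. That RPS7 probe was detected only on A549 knockdown and H1299 vehicle. Its bounds on the normalised scale are a rise of at least 3.13-fold in A549 and a fall of at least 3.02-fold in H1299. RPS15A, RPS4X, RPS26 and RPS15 each had 1 probe in the same class, with changes from 1.07 to 1.61 in A549 and from -1.94 to -1.09 in H1299. The RPS15 probe, ILMN_2219131, was below detection on A549 vehicle, and its change in A549 of 1.31 became -0.14 with undetected values held at the lowest detected value.

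RPS29, a small zinc-binding protein of the 40S head, gave the widest change in the reverse sense. Its dim probe ILMN_2298818 had 476.6, 273.0, 203.1 and 272.3, with changes of -2.11 and 1.16. The other RPS29 probes were brighter and changed less than 2-fold, with -0.74 and 0.55 on ILMN_2415722, -0.26 and 0.16 on ILMN_1694742, and 0.34 and -0.22, the other way, on ILMN_1738243. RPS6, the substrate of the S6 kinases downstream of mTOR, had changes of 0.28 and -0.86 on ILMN_1656791 and of 0.18 and 0.17 on ILMN_1808939, neither of them 2-fold.

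In the large subunit, RPL6 had 3 probes that differed in course. ILMN_1717490 had 199.2, 1033.3, 2539.9 and 249.2, with changes of 2.81 and -4.26. ILMN_1690494 stayed between 38272.8 and 39544.2, with changes of 0.01 and -0.01, and ILMN_1712155 between 21172.8 and 24656.2, with 0.04 and -0.08. The dim probe alone carried the opposing change of RPL6.

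RPL12, a protein at the foot of the stalk, had 1676.2, 7757.1, 10528.6 and 1403.6 on ILMN_2116366 and changes of 1.89 and -3.21. Its other probe, ILMN_1653469, had 6248.1, 7165.0, 7338.7 and 6476.7 and changes of -0.11 and -0.43. RPL3, which reaches towards the peptidyl transferase centre, had 4432.5, 12038.0, 18945.5 and 4195.8 on ILMN_2319994 and 15331.4, 14299.8, 15864.3 and 15871.5 on ILMN_2319996. RPL12 and RPL3 thus each had 1 probe that was low on A549 vehicle and H1299 knockdown and 1 that was nearly level over the arrays. RPL9 had 281.8, 942.3, 3144.5 and 630.1 on ILMN_1729033, while its other probes had changes of 0.36 and -0.22 in A549 and of -0.71 and 0.30 in H1299.

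RPL14 went the reverse way. Its probe ILMN_1726460 had 3179.5, 1712.7, 1865.7 and 6713.5, with changes of -1.39 and 1.68, and its probe ILMN_2404850 had -0.43 and 0.49. RPL14L, now named as the RPL14 pseudogene RPL14P1, had -1.24 and 1.06 on ILMN_3225591, and with RPS29 these make up the reverse class of 3 probes. RPL36A and RPL37 were near it on the normalised scale, with -0.94 and 1.07 and with -0.99 and 0.78 on their detected probes. Both probes are dim, and their raw signals in A549 hardly moved. These were 258.3 and 258.6 for RPL36A and 259.3 and 255.3 for RPL37. On the deposited values their A549 changes were only -0.26 and -0.27, so the size of these falls depends on the processing.

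RPL5 and RPL11 bind the 5S rRNA, and free of the ribosome they bind MDM2. RPL5 was at 16365.9, 12143.3, 14419.2 and 19738.1, with changes of -0.67 and 0.25. RPL11 was at 25761.1, 18782.1, 17883.2 and 26719.4 on ILMN_1672446 and at 22009.5, 16354.7, 16942.0 and 25971.3 on ILMN_2114876. Both RPL11 probes had about the same changes, -0.59 and -0.60 in A549 and 0.38 and 0.44 in H1299, all under 2-fold. With median centring over detected probes the A549 changes were -1.14 and -1.11 for the RPL11 probes and -1.11 for RPL5, past 2-fold. Of the ubiquitin fusions, RPS27A had changes from 0.00 to 0.12 in A549 and from -0.23 to -0.14 in H1299.

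**Figure D2:**
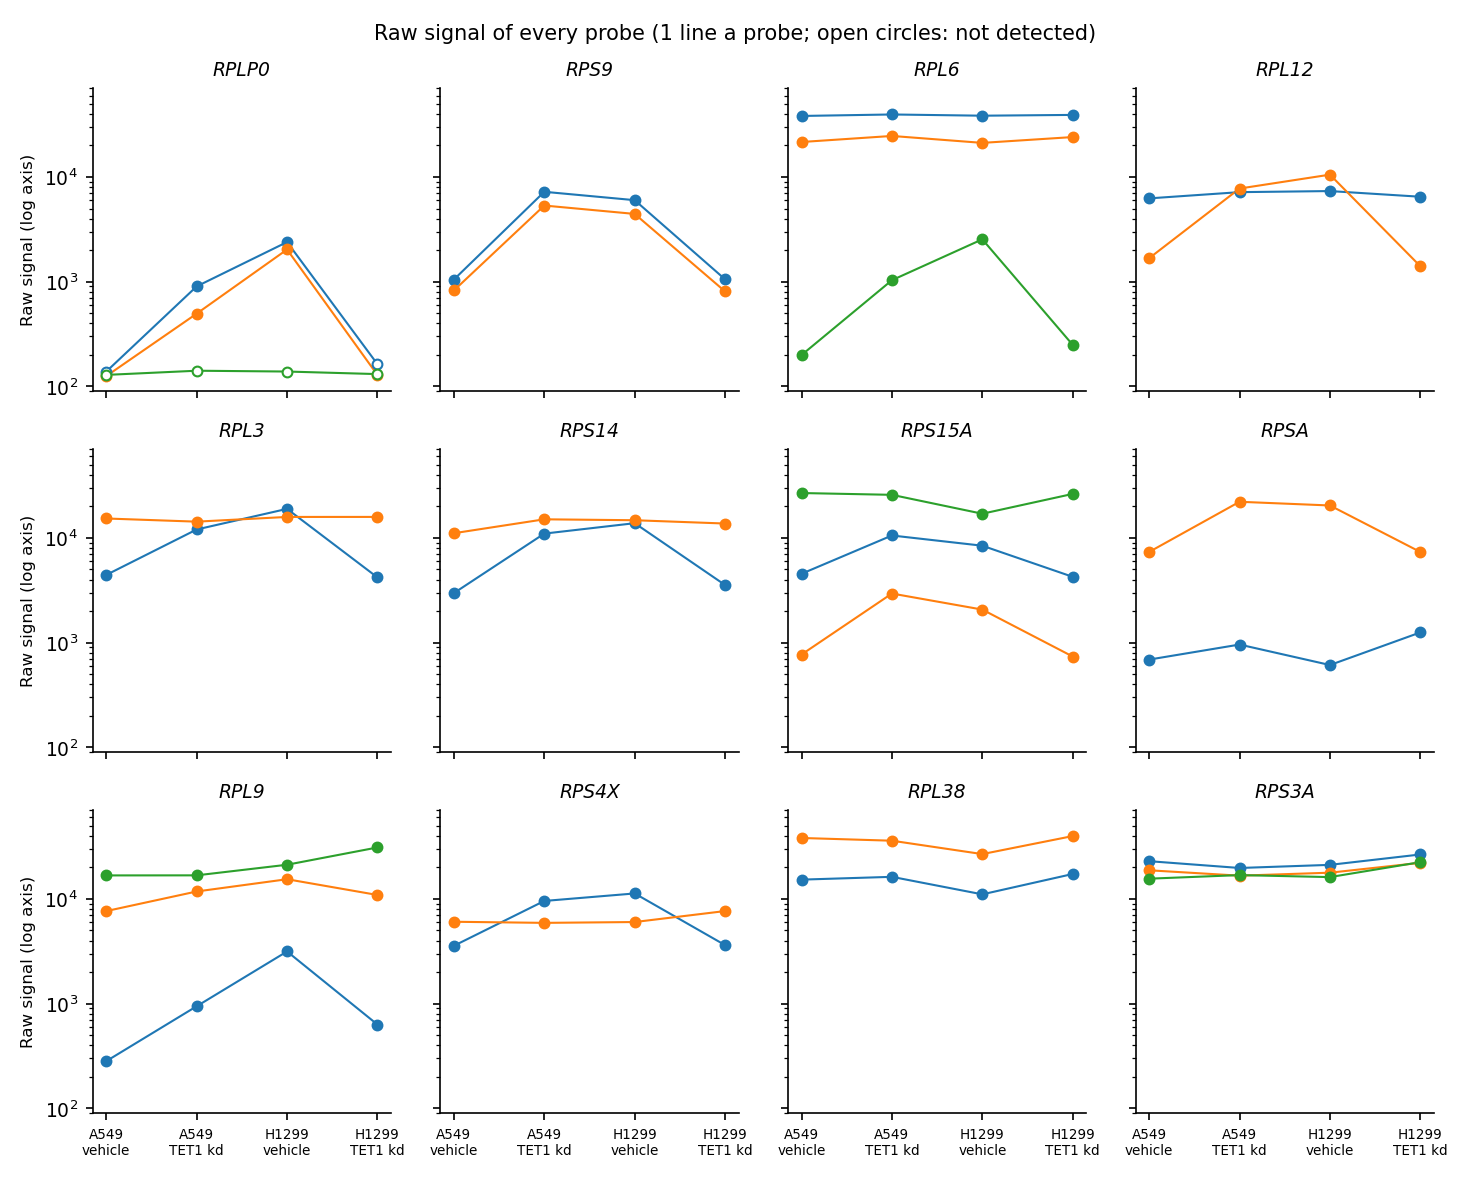
Raw signal, on a log axis, of every probe of 12 of the ribosomal protein genes on the 4 arrays; 1 line is 1 probe, filled circles are detected and open circles are not, and kd stands for knockdown. The A549 vehicle and H1299 knockdown arrays are low in the detected RPLP0 probes, both RPS9 probes and 1 probe each of RPL6, RPL12, RPL3 and RPS14, while other probes of RPL6, RPL12 and RPL3 and all probes of RPS3A are nearly level.

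Probes of the same gene often disagreed. Of the 38 genes with at least 2 probes detected on at least 2 arrays, 17 had probes at least 2-fold apart in their change in A549 (44.7%, against 35.4% of 2693 other genes) and 24 in H1299 (63.2%, against 51.8%). The 17 were apart in both lines (44.7%, against 29.1%). Among genes with 3 or more such probes the shares of the members were the lower ones, 60% of 10 against 64.8% of 383 in A549 and 70% against 80.9% in H1299. Opposite signs were found in 18 genes in A549 (47.4%, against 43.3%) and in 20 in H1299 (52.6%, against 46.3%). A difference between probes of the same gene does not move with a shift of a whole array.

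The 24 probes of the opposing class belong to 22 genes. In 13 of these genes another detected probe changed less than 2-fold in both lines. In RPS9 and RPLP0 both detected probes were in the class. The other RPSA probe, ILMN_1664910, had 688.8, 958.7, 611.1 and 1252.0, with -0.08 in A549 and 1.18 in H1299, against 1.34 and -1.76 on ILMN_2411723. The remaining 6 genes, among them RPL24, RPL28, RPS2, RPS3 and RPS26, had no second probe detected on 2 arrays. The genes with the widest ranges were RPL6, RPL7L1, RPL9, RPSA, RPL12, RPS29, RPL3 and RPS15A.

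Agreement of probes was found as well. The 3 probes of RPS3A had changes from -0.37 to -0.12 in A549 and from 0.07 to 0.28 in H1299. The probes of RPL38 had -0.18 and -0.13 in A549 and 0.44 and 0.42 in H1299. RPL29 had a pair of dim probes, with 136.6, 188.8, 305.9 and 141.4 on ILMN_1771051 and 148.4, 210.7, 295.1 and 156.4 on ILMN_1737517. Both were undetected on A549 vehicle and H1299 knockdown, so that no fold is given in A549. In H1299 they were at least 2.41-fold and at least 2.26-fold lower on the normalised scale. The position of each probe in its transcript was not analysed here.

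**Figure D3:**
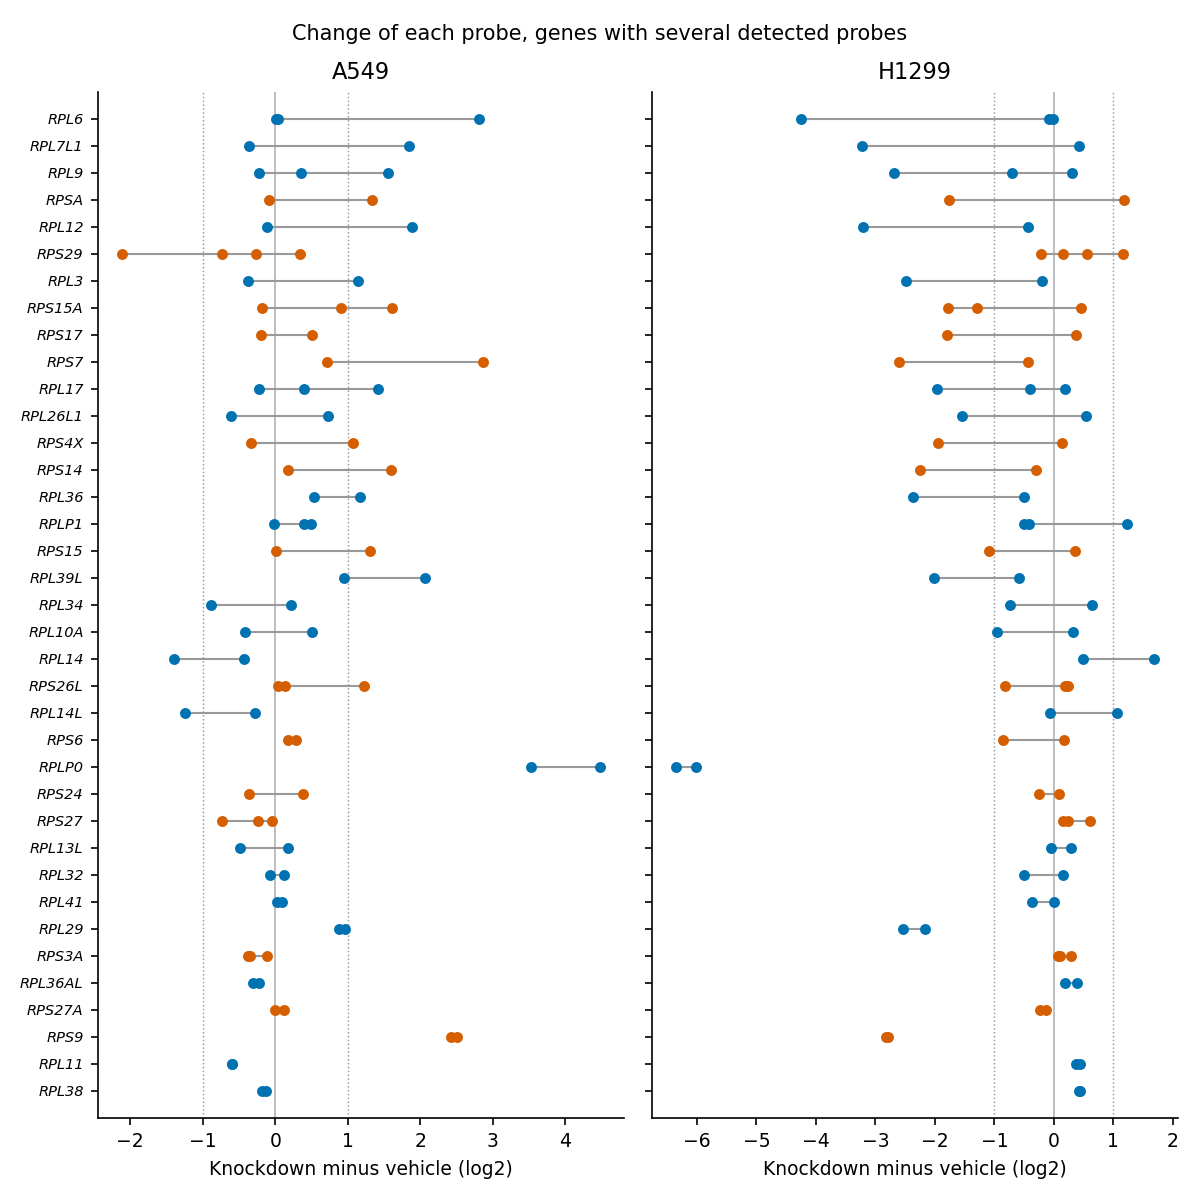
Change of each probe, knockdown minus vehicle on the log2 scale, for ribosomal protein genes with several detected probes, in A549 on the left and in H1299 on the right; 1 point is 1 probe, a grey line joins the probes of a gene, blue is the large and orange the small subunit, and genes run from the widest range at the top. In 17 genes in A549 and 24 in H1299 the line is at least 1 unit long.

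All 24 probes of the opposing class had a lower raw signal on both A549 vehicle and H1299 knockdown than on either other array, as did 98.7% of the 1711 probes of this class in the whole table. The choice of the class fixes the order within each line, so this is a description. Raw signals of the 134 members were so ordered in 57 (42.5%, against 29.8% of all probes). A ratio was taken over the 24 probes of the opposing class only. It set the lower raw signal of A549 knockdown and H1299 vehicle over the higher one of the other arrays. This ratio ran from 1.04 to 19.9. Among all 134 members, normalised values split the arrays in this way, without overlap, in 54 probes (percent of all 17002 probes so split, 22.7), and in the reverse way in 31 (26.6). They were split by line in 24 probes with A549 lower (22) and 17 with A549 higher (21.2). A split by treatment was found in 3 with both vehicle arrays lower (4.19) and in 5 with both higher (3.22).

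Over the 122 members detected on all arrays, the median absolute log2 difference was 0.29 between A549 vehicle and H1299 knockdown and 0.29 between A549 knockdown and H1299 vehicle. It was 0.36 between the A549 arrays, 0.40 between the H1299 arrays, 0.49 between the vehicle arrays and 0.46 between the knockdown arrays. The crosswise pairs, unlike in line and in treatment, were thus the nearest. Of the members, 8 (6.56%) were at least 2-fold apart in each crosswise pair, against 22 (18%) within A549 and 31 (25.4%) within H1299. Over all 11894 probes detected on all arrays, the same medians were 0.48 and 0.49 crosswise, 0.46 within A549, 0.67 within H1299, 0.75 between vehicles and 0.70 between knockdowns. Of all these probes, 19.8% and 22.4% were at least 2-fold apart crosswise, 15.5% within A549 and 30.3% within H1299, so that the A549 arrays were the nearest pair over all probes but not over the members. The number of probes detected over the whole table was also lower on A549 vehicle and H1299 knockdown than on the other arrays. What else moves with this order of the arrays, other than the labels, was not tested.

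The opposing class was not spread evenly over signal. It held 8 of 23 members with a mean raw signal under 1000 (34.8%, against 11.4% of other probes), 8 of 23 from 1000 to 5000 (34.8%, against 7.20%) and 8 of 56 from 5000 to 20000 (14.3%, against 5.88%). None of 32 members at 20000 or above was in it, against 1 of 150 other probes (0.667%). Among these brightest members the change in A549 minus that in H1299 lay between -1.04 and 0.80. Whether signals this bright still follow the amount of RNA was not tested. A low value on some arrays also lowers a probe's mean, so the bins are a description of where the class lies.

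**Figure D4:**
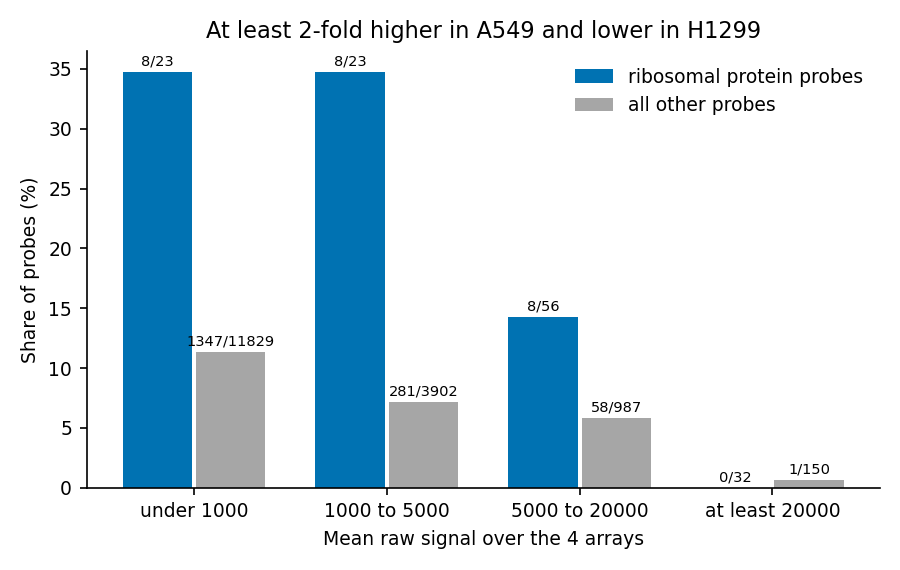
Share of probes, in percent, at least 2-fold higher after knockdown in A549 and at least 2-fold lower in H1299, by mean raw signal over the 4 arrays, for ribosomal protein probes (blue) and all other probes (grey) detected on at least 2 arrays; fractions over the bars are probes in the class over probes in the bin. Of the ribosomal protein probes, 8 of 23, 8 of 23, 8 of 56 and 0 of 32 were in the class.

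Several ribosomal proteins have an expressed paralogue, and pairs were read with every probe. The RPL39 probe was at 5195.4, 6724.5, 5058.2 and 6902.3, with changes of 0.06 and 0.20. RPL39L, its paralogue known from testis and tumours, was at 391.9, 1925.0, 2149.7 and 664.5 on ILMN_1712413 and at 1782.8, 4430.0, 4834.8 and 3917.9 on ILMN_2108357. Both RPL39L probes were lowest on A549 vehicle and highest on H1299 vehicle, and only the first passed 2-fold in both lines, with 2.07 and -2.01 against 0.95 and -0.58. The RPL39 and RPL39L proteins are near-identical. Probe sequences were not examined, so which of the transcripts a probe bound cannot be told here.

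For RPL7L1, named for its likeness to RPL7, the probes ILMN_1705908 and ILMN_2220320 disagreed, with changes of 1.85 and -0.36 in A549 and of -3.22 and 0.43 in H1299. The RPL7 probe itself had 0.05 and 0.07. RPL26L1 showed the same kind of disagreement, with 0.73 and -0.61 in A549 and -1.55 and 0.54 in H1299, and RPL26 had 0.05 and -0.23. RPL22 was at 2536.3, 4405.7, 5757.6 and 3226.1, with changes of 0.42 and -1.12. Its paralogue RPL22L1 was at 139.6, 153.6, 196.1 and 218.3 and was detected on the H1299 arrays only. The limma line difference of RPL22L1 was 1.39 ± 0.85 (SE; adjusted p = 0.745).

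RPL36AL, the autosomal paralogue of RPL36A, had probes with changes of -0.23 and -0.31 in A549 and of 0.39 and 0.19 in H1299. The 3 probes of RPS27 were detected on all arrays, with changes from -0.73 to -0.04 in A549 and from 0.15 to 0.61 in H1299. RPS27L, a paralogue of RPS27 known as a p53 target gene, had 20789.9 and 16600.9 on the A549 vehicle and knockdown arrays and 3853.3 and 7214.9 on those of H1299. Both H1299 values were below both A549 values. Its other probe, ILMN_2126802, was detected nowhere.

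**Figure D5:**
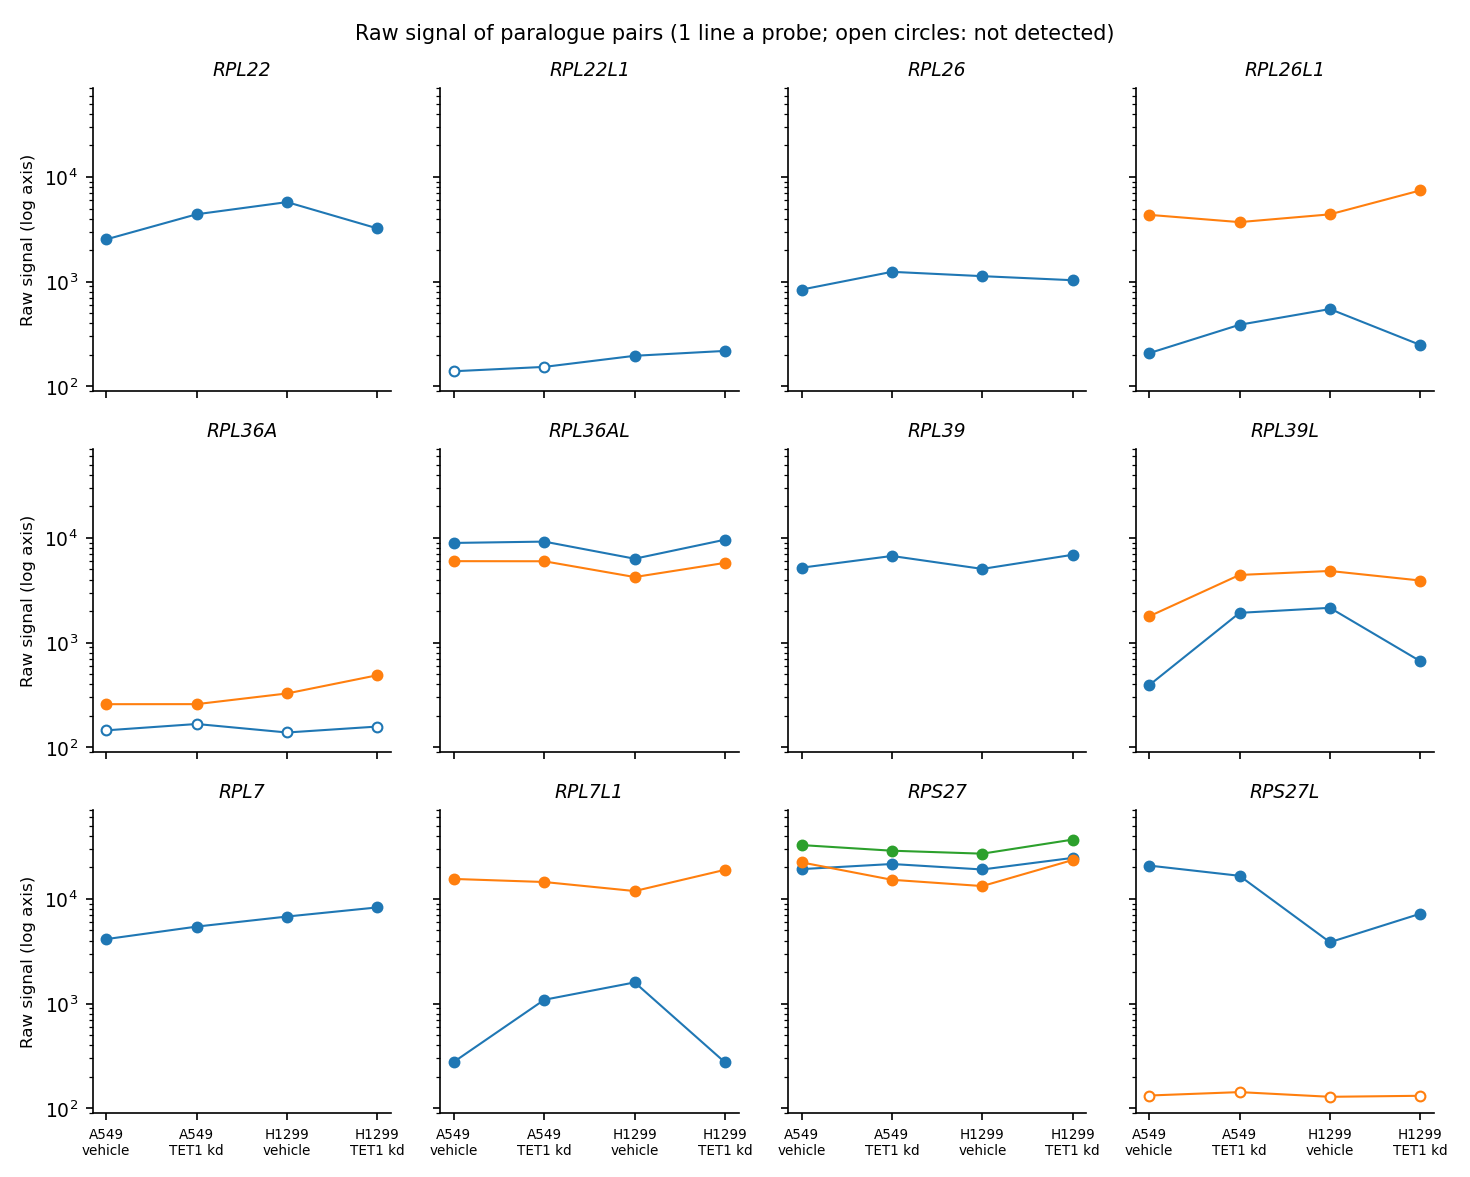
Raw signal, on a log axis, of every probe of 6 paralogue pairs of ribosomal protein genes on the 4 arrays; 1 line is 1 probe, filled circles are detected and open circles are not, and kd stands for knockdown. The upper RPS27L line falls from A549 to H1299, the RPS27 probes do not, and 1 probe each of RPL39L, RPL7L1 and RPL26L1 is low on A549 vehicle and H1299 knockdown.

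RPS27L was the only member called different between the lines. In limma its probe ILMN_1712678 was lower in H1299 by 1.92 on the log2 scale (-1.92 ± 0.49, SE, adjusted p = 0.00481), lower on both H1299 arrays than on both A549 arrays. Of the 134 members, 1 was called as lower (2.55% of all 17002 probes were) and 0 as higher (1.28%). The call was lost with median centring over detected probes (adjusted p = 0.189), with centring over all probes (0.307) and without the intensity trend (0.387), at differences from -2.00 to -1.92. At an unadjusted p under 0.05 there were 3 members. The others were RPL34 on ILMN_1774823, with 925.4 and 808.9 in A549 and 2447.4 and 4459.4 in H1299 (limma 2.01 ± 0.73, adjusted p = 0.115), and RPL14 on ILMN_2404850, with 2975.7 and 2955.6 against 6216.5 and 10155.7 (1.34 ± 0.57, adjusted p = 0.254). The median line difference over the 134 members was 0.01, against 0.05 over all probes.

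Genes around the ribosome were read from lists, with no probe of any of them called for the knockdown in limma. Translation elongation factors deliver aminoacyl-tRNA and move the ribosome. Of their probes, 7 of 15 were in the opposing class, higher in A549 and lower in H1299 (46.7%, against 10.1% of all probes). In the reverse class there were 0 (0%, against 3.68%). The EEF1G probe ILMN_2262288 had 188.7, 6005.9, 5357.8 and 190.3, and the EEF1A1 probe ILMN_1810810 had 723.9, 26787.3, 40453.5 and 728.6. Like the detected RPLP0 probes and RPS2, both were low on A549 vehicle and H1299 knockdown. The EEF1A1 probe ILMN_2038774 was also in the class. The other EEF1A1 probes changed less than 2-fold, with 0.64 and -0.39 on ILMN_1343291 and -0.48 and 0.57 on ILMN_3251737. Of other mRNAs with a terminal oligopyrimidine start, 10 of 38 probes were in the class (26.3%, against 10.1% of all probes). This list shares most elongation factors, and all 7 of their opposing probes are among the 10. The rest were probes of EIF4B, NAP1L1 and HNRNPA1, so the list adds little beyond the elongation factors. Of initiation factors it was 7 of 34, among them EIF3B (ILMN_2278729 and ILMN_1715636) and EIF4G2 (ILMN_2279635). The other EIF3B probe, ILMN_2379469, had -0.29 and 0.31. The other EIF4G2 probes had 0.85 and -1.49 on ILMN_1761519 and 0.29 and -0.44 on ILMN_2380946.

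Ribosome biogenesis factors had 10 of 42 probes in the class, among them NOP2 (ILMN_2328433 and ILMN_3226904) and TSR1 (ILMN_1775761). The other TSR1 probe, ILMN_2092232, went the reverse way, with -1.39 and 1.57. The NOP2 probe ILMN_1723158 had 0.28 and -0.08. Mitochondrial ribosomal proteins had 21 of 103, among them MRPS35, with 153.4, 1762.1, 2893.7 and 154.4. The shares for initiation factors, biogenesis factors and mitochondrial ribosomal proteins, 20.6%, 23.8% and 20.4%, stood beside 17.9% of cytosolic ribosomal protein probes and 10.1% of all probes. Annotated ribosomal protein pseudogenes had 2 of 10 probes in the class and 3 in the reverse, among them RPL31P10 with -1.27 and 1.54. The ubiquitin fusions had 0 of 5 and regulators of ribosomal protein synthesis 0 of 10. In the last list MYC, a driver of ribosome synthesis, had changes of 0.76 and -2.43 on ILMN_1680618 and of 0.56 and -1.90 on ILMN_2110908.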

How the data were processed

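Biotinylated cRNA from total RNA was hybridised to Illumina bead arrays, per the labels, whose extraction text describes DNA. The deposited intensity of a probe is its average bead signal per the file headers, without background subtraction or normalization. Beside it stands a deposited detection p-value. Per the submitters' processing notes, the authors also used lumi, which gave deposited values close to log2 for bright probes only. Its version, transformation and centring stay unknown. Plotted on the log2 signal, the deposited values rose with slopes of 0.974 to 1.08 above a log2 signal of 11. Below a log2 signal of 7 the slopes were 0.224 to 0.321, so changes of dim probes are compressed in them. The 4 array medians lay between 8.28 and 8.30.

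Intensities were corrected by normexp with an offset of 16, quantile normalized and log2 transformed (neqc, limma 3.58.1, R 4.3.3). Every probe was kept apart. Within a line no test exists; changes of at least 2-fold were counted over probes detected at p under 0.01 on at least 1 of the line's arrays, and opposing changes over probes detected on at least 2 arrays. A side below detection gives a bound on this normalised scale, written at least N-fold. It is no limit for raw or deposited values. limma fitted line and knockdown to 17002 probes with 1 residual degree of freedom, a trend over intensity, infinite prior degrees of freedom and Benjamini-Hochberg adjustment, two-sided. The error therefore follows the trend over all probes, and p-values reach no further than these samples. The fit was also run on simulated data with noise independent between probes. The arrays here share a crosswise pattern over many probes, so that run does not show how the fit behaves on them. The number of arrays limits the precision.

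Named probes were those with the largest opposing change, mean change and line difference each way, and those of the genes with the widest range over probes. The stalk, 5S, RPS6, RPS27A and paralogue genes were also named, with up to 3 probes of each related list. Further members of a counted class, and other probes of genes named from the lists, were named after their values were seen. The members and lists were chosen with earlier results of these data known. Symbols and start windows come from RefSeq GRCh38.p14, whose coordinates are those of the promoter table. Sequences of genes on chromosome 8 are not shown, and a few members stand in the counts but are not reported here by name. All per-sample columns were matched.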

Additional observations from a re-analysis of the deposited data

Results flagged for a closer look

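For 24 ribosomal protein probes one way and 3 the other, the measured changes in A549 and H1299 were each at least 2-fold and in opposite directions, and 22 and 3 with undetected values held at the lowest detected value. This difference between the lines was not tested, since each change rests on 1 array a group. The change in A549 minus that in H1299 is given on the normalised log2 scale. Of the probes detected on all 4 arrays, RPS2 had 9.39, RPL6 7.07 (ILMN_1717490), RPS9 5.31 and 5.22 on its probes, RPL12 5.10 (ILMN_2116366), RPL7L1 5.08 (ILMN_1705908), RPL9 4.24 (ILMN_1729033) and RPL39L 4.08 (ILMN_1712413). Values from 3 to 4 were found for RPS14 (3.84 on ILMN_1666635), RPS3 (3.67), RPL3 (3.63 on ILMN_2319994), RPS15A (3.39 on ILMN_2255310), RPL17 (3.36 on ILMN_1655422), RPSA (3.10 on ILMN_2411723) and RPS4X (3.02 on ILMN_1810577). Smaller values belonged to RPS26 (2.56 on ILMN_2209027) and RPL24 (2.54). Negative values belonged to RPS29 (-3.28 on ILMN_2298818), RPL14 (-3.07 on ILMN_1726460) and RPL14L (-2.29 on ILMN_3225591).

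Probes below detection on some array have only a bound, on the same normalised scale, and no place in this order. The RPLP0 probes ILMN_1709880 and ILMN_1745075 had measured differences of 10.50 and 9.90 and bounds of at least 8.40 and 6.97. RPS7 (ILMN_2070072) had 5.47 with a bound of at least 3.24, RPL28 3.84 with at least 3.79, and RPL36 (ILMN_1771462) 3.54 with at least 2.38. RPS15 (ILMN_2219131) had 2.40, and 0.95 when held at the lowest detected value, where its change in A549 was no longer positive.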

How the results depend on the processing

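No paired analysis was possible because each group has 1 array and the labels give no replicate number; the line was the block. No replicate could be left out for the same reason. Over 11 alternatives, 0 ribosomal protein probes were called for the knockdown. The single probe called between the lines became 0 with either median centring and 0 without the intensity trend, and the calls over all probes ranged from 32 to 835 around 651. In A549 the probes at least 2-fold lower numbered 11 in place of 3 with median centring over detected probes, and in H1299 those at least 2-fold higher numbered 3 in place of 6 on the deposited values. Probes in the opposing class numbered between 18 and 27 around 24. The class held 17.9% of members against 10.1% of all probes in the main setting. It held 13.4% against 2.58% on the deposited values, where changes of dim probes are compressed. With median centring over detected probes it held 13.4% against 10.1%. With centring over all probes it held 20.1% against 13.9%. Genes with probes at least 2-fold apart numbered between 12 and 21 in A549 and between 19 and 25 in H1299. With undetected values held at the lowest detected value, RPS15 (ILMN_2219131) in A549 changed sign to -0.14. Centring over all probes was added after the data were seen. The causes were not tested. Signal near background limits the dim probes.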
